A study of Rattus norvegicus with 6 samples.

Results

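This report describes the translation initiation factor genes of rat bone marrow mesenchymal stem cells in old and young cells. Members were chosen by symbol: every row of the count table whose symbol begins with Eif followed by a digit from 1 to 6 was taken. The Y-linked gene Eif2s3y, the eIF2 kinases (symbols beginning with Eif2ak) and the eIF4E-binding proteins (symbols beginning with Eif4ebp) were left out. This gave 45 genes of the 21026 in the table. Polyadenylated RNA was sequenced from 3 libraries labelled aged and 3 labelled young, all from Rattus norvegicus and all labelled as the same cell type, plastic-adherent progenitors of the skeletal and fat lineages. The labels record no genotype, strain, drug, sex, age in months or passage for either group, and age class is the one difference they name. They number the libraries as biological replicates without saying whether each came from a separate animal, so p-values here measure library-to-library spread, part of which may be technical.

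Initiation is the step of protein synthesis at which a ribosome is placed on an mRNA and finds the start codon. The small subunit binds eIF1, eIF1A, eIF3 and eIF5 and receives the initiator tRNA from eIF2, while eIF4E, eIF4G and eIF4A bind the cap of the mRNA and unwind its leader. eIF5B then joins the large subunit, and eIF2B recharges eIF2 with GTP for the next round. Phosphorylation of eIF2 in stress and sequestration of eIF4E by its binding proteins are the best known points of control, and both act on proteins, which were not measured here.

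Of the 45 members, 41 had at least 1 entry among the RefSeq promoter sequences of rat assembly GRCr8, and 3 of them (Eif1a, Eif4e2 and Eif4g3) had 2. Eif3e, Eif3h, Eif4b and Eif4e3 had none. The promoters below are those of 3 pairs of genes grouped here under the same factor. Within each pair, levels moved apart between aged and young cells, as described further on, although the direction of Eif4g1 itself depended on scaling. The pairs are the eIF4A helicases, the scaffolds Eif4g2 and Eif4g1, and the eIF3 subunits with the largest rise and the largest fall. Each stretch runs 5′ to 3′ on the strand of the gene, with 100 bases before and 30 bases after the annotated start, and is given in lower case. Capitals mark 5 motifs on either strand: the E-box CACGTG, the CCAAT box CCAAT, the GC box GGGCGG, the ETS site CCGGAA and the YY1 site AAGATGG. The genome build of the counts is not given in the sources used here, so these positions belong to the promoter table and not to the counts.
Eif4a2, chr11:91275294-91275423 (minus strand): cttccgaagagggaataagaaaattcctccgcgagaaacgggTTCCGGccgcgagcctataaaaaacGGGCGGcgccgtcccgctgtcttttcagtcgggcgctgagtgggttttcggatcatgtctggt
Eif4a1, chr10:54888573-54888702 (minus strand): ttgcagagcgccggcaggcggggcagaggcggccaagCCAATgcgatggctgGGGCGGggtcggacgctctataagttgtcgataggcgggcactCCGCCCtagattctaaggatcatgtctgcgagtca
Eif4g2, chr1:174628223-174628352 (minus strand): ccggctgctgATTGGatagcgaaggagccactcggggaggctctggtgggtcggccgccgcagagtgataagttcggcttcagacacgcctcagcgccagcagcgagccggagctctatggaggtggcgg
Eif4g1, chr11:93746338-93746467 (minus strand): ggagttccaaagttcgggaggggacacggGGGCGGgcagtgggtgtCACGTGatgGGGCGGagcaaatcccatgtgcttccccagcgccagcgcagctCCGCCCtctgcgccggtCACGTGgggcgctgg
Eif3a, chr1:269918996-269919125 (minus strand): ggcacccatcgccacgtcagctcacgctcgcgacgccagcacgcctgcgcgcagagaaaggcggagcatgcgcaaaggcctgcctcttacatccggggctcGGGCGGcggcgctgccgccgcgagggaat
Eif3f, chr1:172368962-172369091 (plus strand): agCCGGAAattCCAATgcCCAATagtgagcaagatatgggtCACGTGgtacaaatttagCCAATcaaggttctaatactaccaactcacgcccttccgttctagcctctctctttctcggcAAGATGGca

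In the full 300-base windows (250 before and 50 after the start), an ETS site was found in 23 of the 44 member promoters (52.3%), against 15.0% of all 33469 promoters in the table. The E-box was found in 9 member promoters (20.5%, against 6.42% of all), and the GC box in 29 (65.9%, against 33.1%). The CCAAT box was in 15 (34.1%, against 37.5%) and the YY1 site in 5 (11.4%, against 7.01%). Among members that were higher in aged cells, 7 of 19 promoters held the ETS site, and among those that were lower, 15 of 24. These groups follow the main test, and for some of the lower members the direction or the call depended on scaling, as described further on. The other motifs split as 3 of 19 and 6 of 24 for the E-box, 14 and 15 for the GC box, 6 and 8 for the CCAAT box, and 4 and 1 for the YY1 site. The median GC content was 62.7% for members that were higher and 59.8% for those that were lower, against 51.7% for all promoters. Across the 41 members with an entry, GC content and log2 change had Pearson's r = 0.29 and Spearman's rho = 0.25, as a description across genes of the same libraries. The set of all promoters was not limited to genes detected in these cells and was not matched to the members by GC content. These counts describe letters in a window and were not tested.

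Total counts ranged from 34638874 to 38921547 in aged libraries and from 40180480 to 42479626 in young ones. The 13 mitochondria-encoded genes took 4.33% ± 0.113 of reads in aged libraries and 1.18% ± 0.157 in young ones (SD, n = 3 each), and the part of this difference in the results below was not tested. Of the 14273 genes with enough counts to test, 86.4% were called different between aged and young cells (edgeR's quasi-likelihood test, p adjusted by Benjamini-Hochberg, under 0.05), so a call by itself does not set a gene apart here. Levels are given as CPM, the reads of a gene relative to all reads of its library after TMM scaling between libraries. Because CPM is not divided by transcript length, levels are compared between groups for 1 gene and not between genes. In bulk RNA, fewer cells of a kind and less RNA per cell cannot be told apart. All 12 stromal markers checked were detected, although Vcam1 and Lepr averaged under 1 CPM. Of these markers 3 were called higher and 7 lower in aged cells, and their summed level was 20884 to 20957 CPM in aged libraries and 37085 to 38026 CPM in young ones. Cxcl12 had 203 ± 1.44 CPM in aged and 3387 ± 165 CPM in young cells and Thy1 1622 ± 13.7 and 4235 ± 9.52 CPM, whereas Nt5e had 47.3 ± 0.561 and 10.5 ± 0.347 CPM (SD, n = 3 each). The leukocyte gene Ptprc had 1 read over all libraries together, the endothelial gene Cdh5 had 1 and Emcn had 0. Tek, the one endothelial marker with enough reads to test, was called higher in aged cells, with 15, 25 and 10 reads in aged libraries and 2, 1 and 0 in young ones (edgeR adjusted p = 0.00026). Of 15 blood-lineage and myeloid markers, 11 were in the table and 4 were high enough to test. Their summed level was 43.8 to 44.7 CPM in aged libraries and 93.2 to 96.3 CPM in young ones. Csf1r was higher in aged cells, at 21.8 ± 0.552 against 0.321 ± 0.182 CPM, while Cd14, Cd68 and Lyz2 were lower. The part of these markers in the results below was not tested.

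All 45 initiation factor genes had enough counts to test, with 97 to 45549 reads per gene and library. In aged cells 18 rose and 26 fell, which is 40.0% and 57.8% of members, against 44.7% and 41.8% of all genes tested. Their changes were far from uniform: log2 changes, aged over young, ran from -1.82 for Eif3f to 3.03 for Eif5b. The median was -0.23 for members and 0.05 for all genes tested. Changes of at least 2-fold were found for 13 higher members (28.9%, against 29.4% of all genes) and 7 lower members (15.6%, against 21.0%). At 4-fold or more, 7 members were higher (15.6%, against 16.6%), and 0 were lower (against 7.13%), the largest fall being 3.53-fold for Eif3f. After TMM scaling, all libraries of 1 group lay above all of the other in each of the 45 genes, as in 87.5% of genes tested. With TMM scaling, the shares of members that rose at least 2-fold or 4-fold therefore lie close to the background. Falls were more frequent among members than among all genes, large falls were less frequent, and separation was more frequent. All genes tested had as few as 0 reads in a library, and they were not matched to the members by read count. The differences between members and all genes were not tested, and the share that fell depends on scaling. Separation was counted after TMM scaling only. Groups need not lie apart with library totals, under which Eif3b had a log2 change of 0.0088 (edgeR adjusted p = 0.82). With libraries scaled by their totals alone, the median shift of all log2 changes was 0.34 upward, 22 members were called higher and 16 lower, against 54.0% and 32.6% of all genes under that scaling, and the members' median became 0.10 against 0.39 for all genes. The gap between the members' median and that of all genes was -0.29 under both scalings and -0.55 with no low-count filter. Eif3i, Eif3k, Eif4a1, Eif4b and Eif4h fell at least 2-fold with TMM but less with library totals, with log2 changes from -0.95 to -0.68. With totals, Eif2b4 and Eif2s1 passed a 2-fold rise, at 1.13 and 1.15, and Eif1a passed a 4-fold rise, at 2.20. The shares of all genes at these folds were not counted with totals.

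The directions described below held under both scalings for 18 higher and 16 lower members. Eif1, Eif4g1 and Eif6 were called lower with TMM and higher with library totals, and Eif1ad was not called with TMM and higher with totals. Eif1b, Eif2b1, Eif2b2, Eif3b, Eif3d, Eif3e and Eif3l were called lower with TMM and not called with totals, and Eif2b2, Eif3b, Eif3d, Eif3e and Eif3l then had values just above 0. Those called lower with TMM are included in the TMM counts of lower genes and promoters in this report. Their direction relative to a fixed amount of RNA is not known.

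**Figure D1:**
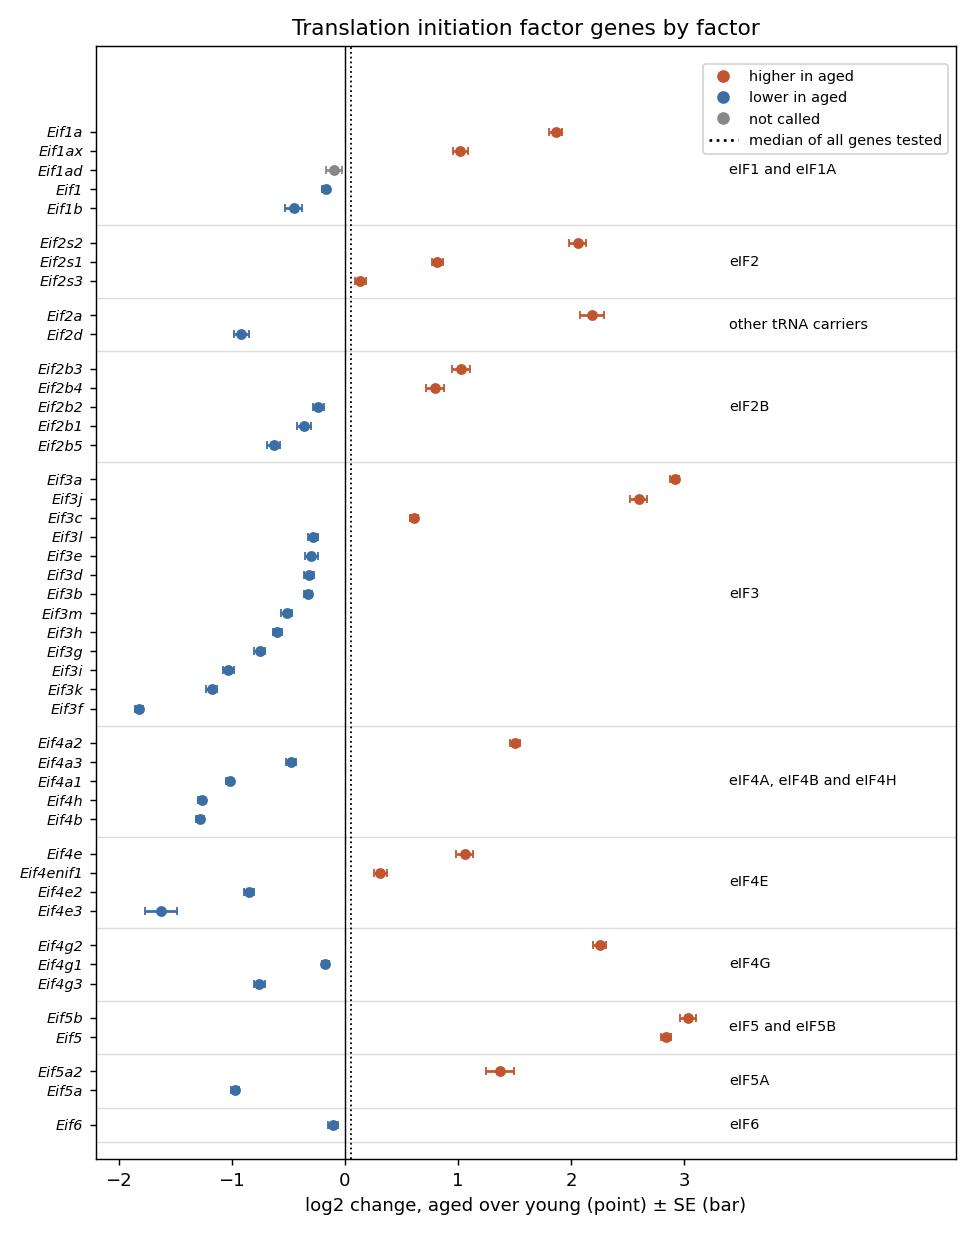
Log2 change of each of the 45 genes (horizontal axis, aged over young, points) with its standard error (bars), grouped by factor. Eif5b, Eif3a, Eif5 and Eif3j lie above 2.5, whereas Eif3f, Eif4e3, Eif4b and Eif4h lie furthest below 0; the dotted line is the median of all genes tested, 0.05.

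Within the libraries of a group the members were tight. The SD over 3 libraries was a median 2.67% of the mean in aged cells and 5.06% in young cells. Young replicate 2 was the young library closest to the aged mean for 31 of the 45 genes, and leaving it out lost no member's call. Together the 45 genes took 0.884% ± 0.00447 of all reads in aged cells and 0.713% ± 0.00366 in young cells. After TMM scaling their summed level was 7867 ± 48.5 CPM in aged and 8013 ± 51.6 CPM in young cells, a ratio of 0.982, so the sum came out higher or lower according to the scaling (SD, n = 3 each).

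Among the factors that guide start codon choice, Eif1a and Eif1ax, which both encode eIF1A, rose. For Eif1, which encodes the partner that holds the scanning ribosome open, and its relative Eif1b, the direction or the call depended on scaling. Eif1a had 183, 183 and 186 CPM in the aged libraries, against 49.6, 55.8 and 45.9 CPM in the young ones, a 3.64-fold rise (log2 change 1.86 ± 0.056 SE, edgeR adjusted p = 2.2e-15). Every aged library lay far above every young one. Eif1ax rose 2.03-fold, at 115 ± 4.03 CPM in aged and 56.7 ± 6.42 CPM in young cells (edgeR adjusted p = 6.1e-11). The pair encodes closely similar proteins, and reads of near-identical stretches may have been lost or assigned to either copy. Eif1 had 491, 514 and 507 CPM in aged libraries and 577, 558 and 564 CPM in young ones, a log2 change of -0.17 ± 0.031 that turned to 0.17 with scaling by totals. Eif1b had 20.2, 23.6 and 23.1 CPM in aged and 32.7, 29.9 and 29.0 CPM in young libraries, with a log2 change of -0.45 (edgeR adjusted p = 3.1e-05) that lost its call at -0.12 with scaling by totals (adjusted p = 0.16). Eif1ad, whose protein carries an eIF1A-like domain, was the one member not called: it had 17.6, 17.4 and 18.4 CPM in aged and 19.1, 19.0 and 18.8 CPM in young libraries (log2 change -0.10 ± 0.074, edgeR adjusted p = 0.23).

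All 3 subunit genes of eIF2, the GTPase that carries the initiator tRNA, were higher in aged cells, by unequal amounts. Eif2s2, the beta subunit, had 165, 165 and 171 CPM in aged libraries, against 36.7, 47.5 and 35.9 CPM in young ones, and rose 4.17-fold (log2 change 2.06 ± 0.076 SE, edgeR adjusted p = 3.5e-14). Eif2s1, the alpha subunit that the stress kinases phosphorylate, rose 1.76-fold to 141 ± 4.80 CPM in aged cells, against 79.9 ± 4.33 CPM in young cells (edgeR adjusted p = 2.2e-11). Eif2s3, the gamma subunit that binds GTP and the tRNA, had 118, 117 and 115 CPM in aged and 107, 114 and 98.6 CPM in young libraries. The groups of Eif2s3 lay close together, and its log2 change of 0.14 ± 0.049 (edgeR adjusted p = 0.016) lost its call without aged replicate 1, young replicate 1 or young replicate 3, where adjusted p ranged over 0.059, 0.059 and 0.20. Eif2s3y, the Y-linked gamma copy that is no member, had 58.9 ± 2.77 CPM in aged and 30.7 ± 2.07 CPM in young cells, and reads of the gamma copies may have been assigned to either gene. The summed level of the 3 member genes was 425 ± 2.53 CPM in aged cells and 226 ± 17.7 CPM in young cells.

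Both monomeric proteins that can also deliver tRNA to the ribosome changed, in opposite directions. Eif2a, which encodes eIF2A and is distinct from the alpha subunit of eIF2, had 32.2, 32.5 and 35.1 CPM in aged libraries and 6.82, 8.89 and 6.19 CPM in young ones, a 4.55-fold rise (log2 change 2.19 ± 0.11 SE, edgeR adjusted p = 1.6e-12). Eif2d, which encodes eIF2D, a protein also involved in ribosome recycling, had 33.8, 36.6 and 38.1 CPM in aged libraries and 73.5, 61.6 and 69.7 CPM in young ones, a 1.89-fold fall (log2 change -0.92 ± 0.068 SE, edgeR adjusted p = 6.7e-10). In neither gene did the groups overlap.

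The 5 genes of eIF2B, the exchange factor that reloads eIF2, did not move together. Of the catalytic subunits, Eif2b3 (gamma) rose and Eif2b5 (epsilon) fell. Eif2b3 had 29.3, 28.8 and 29.1 CPM in aged libraries, against 12.7, 15.4 and 14.6 CPM in young ones, 2.04-fold higher (edgeR adjusted p = 1.3e-09). Eif2b5 had 42.6, 43.5 and 43.5 CPM in aged libraries, against 67.1, 62.2 and 71.3 CPM in young ones, 1.55-fold lower (edgeR adjusted p = 1.2e-08). Of the regulatory subunits, Eif2b4 (delta) rose 1.74-fold, at 36.7 ± 1.47 CPM in aged and 21.1 ± 2.45 CPM in young cells. Eif2b1 (alpha) had 38.4, 38.9 and 36.8 CPM in aged and 46.7, 52.9 and 47.2 CPM in young libraries. Its log2 change of -0.36 and that of Eif2b2 (beta), -0.23, were -0.029 and 0.10 with scaling by totals and then not called. The summed level of the 5 genes was 206 ± 1.40 CPM in aged and 221 ± 6.86 CPM in young cells, a ratio of 0.934 that turned to 1.18 with scaling by totals.

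eIF3, the largest initiation factor, is built on an octamer of the subunits a, c, e, f, h, k, l and m, with b, d, g and i at its edge and j bound loosely. Of its 13 genes, 3 rose and 10 fell in aged cells (23.1% and 76.9%, against 44.7% and 41.8% of all genes tested), and with scaling by totals 3 rose and 6 fell, beside 54.0% and 32.6% of all genes. Eif3a, the scaffold of the octamer, had 544, 542 and 536 CPM in aged libraries, against 71.7, 73.5 and 69.9 CPM in young ones. That is 7.54-fold higher, with a log2 change of 2.92 ± 0.036 SE (edgeR adjusted p = 3.4e-20), and 9.76% of tested genes had a larger log2 change. Eif3j, the loosely bound subunit, had 85.3, 83.8 and 79.9 CPM in aged and 12.9, 15.8 and 12.4 CPM in young libraries, 6.05-fold higher (edgeR adjusted p = 1.6e-15). Eif3c, the octamer partner of Eif3a, rose 1.53-fold, at 347 ± 6.08 CPM in aged and 226 ± 6.33 CPM in young cells (edgeR adjusted p = 1.6e-11).

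The falls in eIF3 were smaller than the largest rises. Eif3f, an octamer subunit, had 97.5, 106 and 103 CPM in aged libraries, against 362, 358 and 361 CPM in young ones, 3.53-fold lower (log2 change -1.82 ± 0.038 SE, edgeR adjusted p = 1.9e-17). Eif3k, also of the octamer, fell 2.26-fold and Eif3i, of the edge, fell 2.04-fold. Eif3g, Eif3h and Eif3m fell 1.68-fold, 1.51-fold and 1.43-fold. Eif3b, Eif3d, Eif3e and Eif3l had log2 changes from -0.33 to -0.28, which scaling by totals moved to between 0.0088 and 0.055, none then called. Both parts of the complex held both directions: 2 of 8 octamer genes and 1 of 5 others rose.

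The summed level of the 13 eIF3 genes was 2068 ± 11.8 CPM in aged and 2136 ± 12.7 CPM in young cells, a ratio of 0.968 that turned to 1.22 with scaling by totals. The makeup of that sum, which scaling does not touch, differed. Eif3a reads were 26.2% ± 0.260 of all eIF3 reads in aged cells and 3.35% ± 0.064 in young cells. Eif3f reads were 4.93% ± 0.174 in aged cells and 16.9% ± 0.184 in young cells. These shares follow transcript length as well as abundance, so a share is set against the same gene's share in the other group only.

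**Figure D2:**
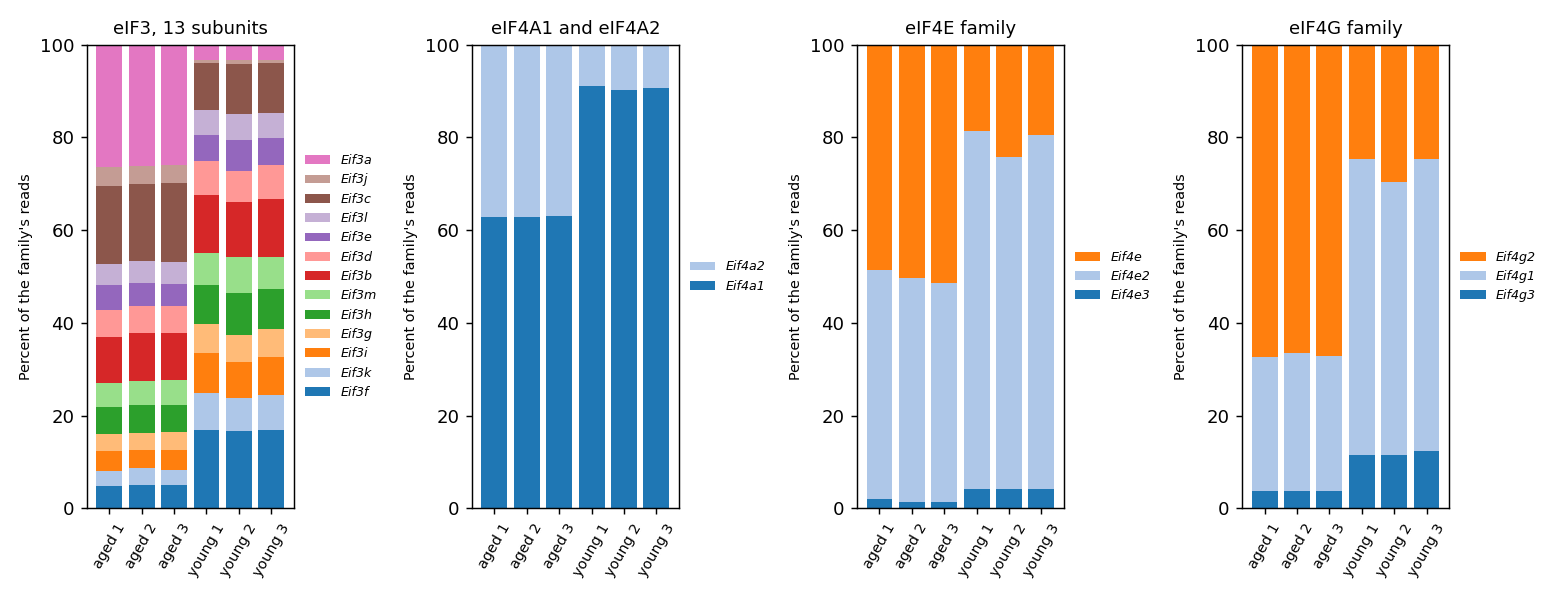
Share of each gene in the reads of its family (vertical axis, percent) in every library, for the 13 eIF3 genes, Eif4a1 and Eif4a2, 3 eIF4E genes and 3 eIF4G genes. The 3 aged bars of each panel resemble each other and differ from the 3 young bars, for example with Eif4a2 at 37.1% ± 0.123 in aged and 9.30% ± 0.475 in young cells.

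Among the helicases that unwind the leader of the mRNA, Eif4a2 rose and Eif4a1 fell. Eif4a2 had 261, 267 and 264 CPM in aged libraries, against 86.7, 99.2 and 93.5 CPM in young ones, 2.83-fold higher (log2 change 1.502 ± 0.046 SE, edgeR adjusted p = 2.3e-15). Eif4a1 had 442, 452 and 451 CPM in aged libraries, against 892, 913 and 917 CPM in young ones, 2.03-fold lower (log2 change -1.02 ± 0.029 SE, edgeR adjusted p = 1.1e-15). Their proteins are close paralogs that both serve as eIF4A. Within a library, the log2 ratio of Eif4a2 to Eif4a1 was -0.76 ± 0.0076 in aged and -3.29 ± 0.081 in young cells, a 5.74-fold shift toward Eif4a2. Eif4a3, the related helicase of the exon junction complex, had 96.7, 93.2 and 90.3 CPM in aged and 125, 133 and 131 CPM in young libraries, 1.39-fold lower (edgeR adjusted p = 1.5e-08).

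The cofactors of the helicase fell by similar amounts. Eif4b had 194, 203 and 201 CPM in aged libraries, against 497, 480.5 and 478 CPM in young ones, 2.43-fold lower (log2 change -1.28 ± 0.034 SE, edgeR adjusted p = 4.3e-16). Eif4h, its relative, was 2.40-fold lower, at 236 ± 3.95 CPM in aged and 567 ± 12.4 CPM in young cells (edgeR adjusted p = 2.6e-16). The summed level of these 5 genes was 1241 ± 14.6 CPM in aged and 2183 ± 1.36 CPM in young cells, a ratio of 0.568.

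The cap-binding genes also moved apart. Eif4e, which encodes the cap-binding subunit of the initiation complex, had 86.4, 93.7 and 94.7 CPM in aged libraries and 39.5, 51.0 and 41.3 CPM in young ones, 2.08-fold higher (log2 change 1.06 ± 0.075 SE, edgeR adjusted p = 4.1e-10). Eif4e2, whose protein 4EHP binds caps without joining eIF4G and is known for repressing translation, had 87.7, 89.6 and 87.2 CPM in aged and 163, 151 and 163 CPM in young libraries, 1.80-fold lower (edgeR adjusted p = 2.9e-12). Eif4e3, the third cap-binding relative, had 145, 118 and 97 reads in aged libraries, against 318, 343 and 323 in young ones. This was the lowest-count member, at 2.90 ± 0.540 CPM in aged and 8.97 ± 0.135 CPM in young cells, 3.09-fold lower (log2 change -1.63 ± 0.15 SE, edgeR adjusted p = 9.8e-09). Eif4enif1, which encodes the eIF4E transporter that takes eIF4E to the nucleus and to P-bodies, rose 1.24-fold, at 44.9 ± 1.19 CPM in aged and 36.2 ± 1.55 CPM in young cells. Within a library the log2 ratio of Eif4e2 to Eif4e was -0.05 ± 0.071 in aged and 1.86 ± 0.26 in young cells. Eif4e reads made up 50.1% ± 1.38 of the reads of the 3 cap-binding genes in aged cells and 20.8% ± 2.98 in young cells.

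Of the scaffolds, Eif4g2 rose and Eif4g3 fell. Eif4g2 encodes DAP5, which lacks the part that binds eIF4E and is known for cap-independent and alternative modes of initiation. It had 1061, 1044 and 1025 CPM in aged libraries, against 203, 249.5 and 204 CPM in young ones, 4.77-fold higher (log2 change 2.25 ± 0.059 SE, edgeR adjusted p = 3e-16). The aged libraries lay far above the young ones, of which replicate 2 was the highest. Eif4g1, the main scaffold of the cap-binding complex, had 456, 464 and 446 CPM in aged libraries, against 524, 496 and 518 CPM in young ones, a log2 change of -0.17 ± 0.033 that turned to 0.17 with scaling by totals. Eif4g3, its close relative, had 57.4, 60.002 and 57.0 CPM in aged and 94.9, 97.8 and 102 CPM in young libraries, 1.69-fold lower (edgeR adjusted p = 7.2e-11). Eif4g2 took 67.0% ± 0.401 of the reads of the 3 genes in aged cells and 26.3% ± 2.81 in young cells. As a share of the reads of all 45 members, Eif4g2 had 13.3% ± 0.255 in aged cells and 2.73% ± 0.339 in young cells.

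**Figure D3:**
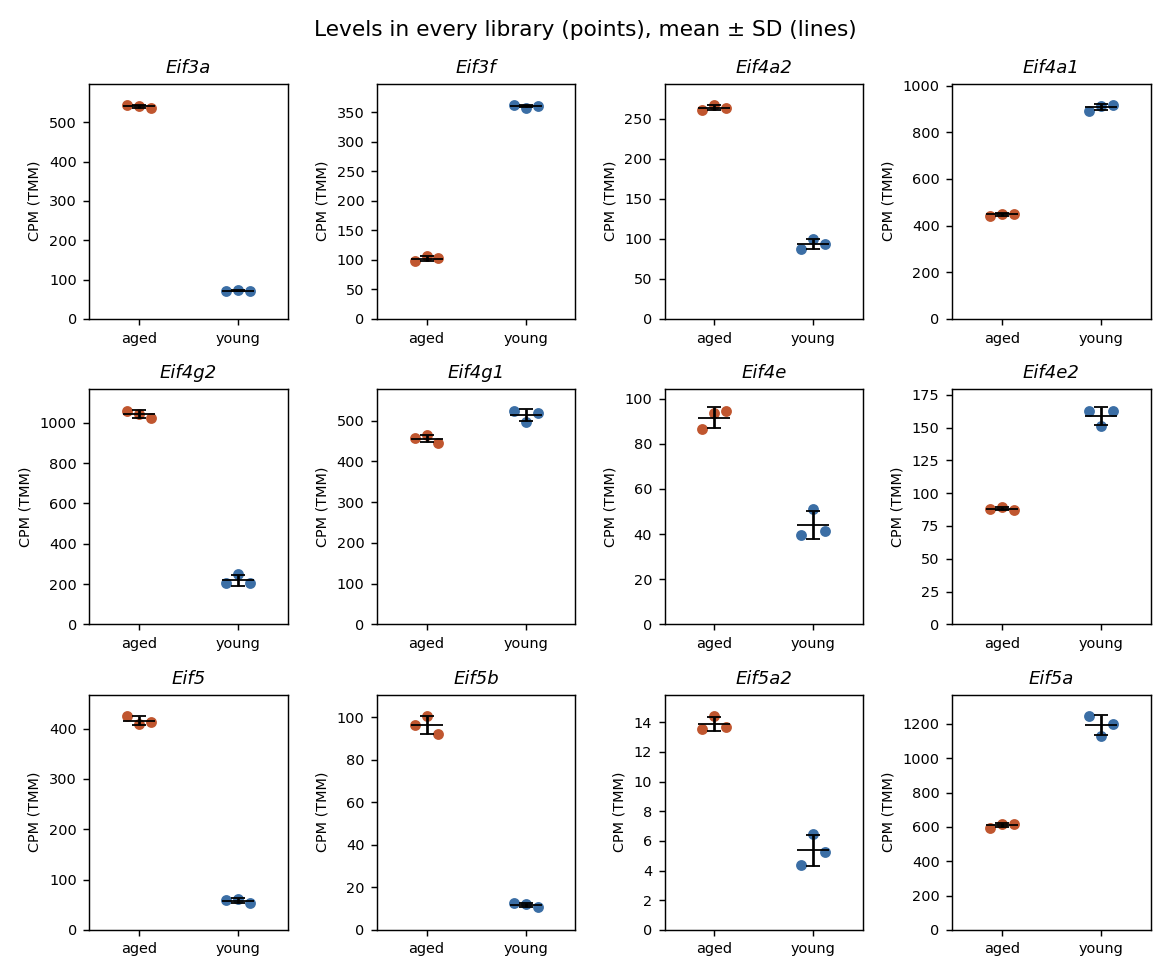
Levels of 12 of the members (vertical axes, CPM after TMM scaling, each starting at 0) in the 3 aged and 3 young libraries (points), with mean and SD (lines). In Eif4g1 the groups lie close together, from 446 to 464 CPM in aged and 496 to 524 CPM in young libraries, whereas the aged means of Eif3a, Eif5 and Eif5b are 7.54, 7.16 and 8.19 times the young ones on the fitted scale.

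Both genes of the GTPase steps at the end of initiation rose, and Eif5b had the largest log2 change of the 45 members. Eif5, whose protein makes eIF2 hydrolyse its GTP at the start codon, had 425, 409 and 413 CPM in aged libraries, against 58.6, 62.1 and 53.6 CPM in young ones, 7.16-fold higher (log2 change 2.84 ± 0.048 SE, edgeR adjusted p = 1.2e-18). Eif5b, the GTPase that joins the large subunit, had 96.4, 101 and 92.3 CPM in aged libraries, against 12.7, 12.1 and 10.6 CPM in young ones, 8.19-fold higher (log2 change 3.03 ± 0.068 SE, edgeR adjusted p = 4.2e-17). Of all genes tested, 9.12% had a larger log2 change than Eif5b. RefSeq names 77 pseudogene copies of 28 members, among them 11 of Eif5, 10 of Eif4e and 8 of Eif4a1. None of the family's pseudogene symbols has a row in the count table. Reads from such copies may therefore have been assigned to the parent genes or dropped. Their part in the levels, read shares and ratios of this report was not tested.

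eIF5A, which carries the unusual amino acid hypusine and helps elongation and termination as well as initiation, was lower in its main gene and higher in its second gene. Eif5a had 595, 615 and 615 CPM in aged libraries, against 1246, 1132 and 1202 CPM in young ones, 1.96-fold lower (log2 change -0.97 ± 0.035 SE, edgeR adjusted p = 2e-14). Eif5a2, the paralog of narrower expression, had 13.6, 14.4 and 13.7 CPM in aged and 4.41, 6.46 and 5.23 CPM in young libraries, 2.58-fold higher (edgeR adjusted p = 1.2e-08). Eif5a2 was 2.23% ± 0.057 of the reads of the pair in aged cells and 0.451% ± 0.109 in young cells. Eif6, which keeps free large subunits from joining small ones, had 95.5, 94.6 and 97.0 CPM in aged and 106, 98.4 and 104 CPM in young libraries. Its log2 change of -0.11 ± 0.044 (edgeR adjusted p = 0.034) turned to 0.23 with scaling by totals. The call was lost without aged replicate 1, aged replicate 2, young replicate 1 or young replicate 3, where adjusted p was 0.076, 0.099, 0.059 and 0.052.

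Ratios between genes of the same library are nearly free of scaling, and 10 were compared. In all 10 the 3 aged values lay on one side of the 3 young values. After TMM scaling, the groups were also apart in 87.5% of single genes tested and in each of the 45 members. Ratios of other genes were not counted, so the separation does not set these 10 apart. Each ratio gave a 2-sided exact permutation p of 0.1, the smallest that 3 against 3 allows. It stayed 0.1 after Benjamini-Hochberg adjustment over the 10, so none can pass 0.05. The largest shifts on the log2 scale, aged minus young, were -2.69 for Eif4e3 over Eif4e, 2.52 for Eif4a2 over Eif4a1, 2.43 for Eif4g2 over Eif4g1 and 2.35 for Eif5a2 over Eif5a. Eif4e2 over Eif4e shifted by -1.92 and Eif2b3 over Eif2b1 by 1.39. Smaller shifts were found for Eif4g3 over Eif4g1 (-0.59), Eif4a3 over Eif4a1 (0.54), Eif1b over Eif1 (-0.29) and Eif5b over Eif5 (0.19).

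Other genes of translation were read from the same fit in 3 lists. Of 19 regulators of initiation, 10 rose and 7 fell, and the median log2 change was 0.40. Scaling by totals gave 12 higher and 6 lower, beside 54.0% and 32.6% of all genes. Among those with a mean of at least 5 CPM, the largest rises were those of Eif2ak2, which encodes the RNA-activated eIF2 kinase PKR, at 54.2 ± 2.27 CPM in aged and 3.69 ± 0.695 CPM in young cells, and Rps6kb1, the S6 kinase below mTOR, at 42.6 ± 1.80 and 16.4 ± 3.57 CPM. Eif4ebp3, which lay under that level, had 6.60 CPM in aged and 2.16 CPM in young cells. Unlike Rps6kb1, the mTOR complex genes Mtor, Rptor and Mlst8 were called lower with TMM scaling (log2 changes of -0.58, -0.60 and -0.81). Rps6kb2, the second S6 kinase gene, was also called lower (-0.39). The largest falls were those of Mknk2, a kinase of eIF4E, at 56.6 ± 3.15 CPM in aged and 129.6 ± 5.20 CPM in young cells, and Eif4ebp1, the inhibitor that binds eIF4E, at 43.3 ± 1.73 and 86.9 ± 5.36 CPM. Eif4e and its inhibitor gene Eif4ebp1 thus changed in opposite directions, 2.08-fold higher and 2.01-fold lower in aged cells. The other genes of eIF4E-binding proteins differed from each other in direction. Like Eif4ebp1, Eif4ebp2 fell, by 1.35-fold, at 101 ± 1.46 CPM in aged and 136 ± 0.925 CPM in young cells. Eif4ebp3 instead rose 3.05-fold. The changes of Eif2ak2, Rps6kb1, Mknk2 and Eif4ebp1 were called (edgeR adjusted p of 1.2e-09 or less).

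Of 18 partners of initiation, 12 rose and 6 fell, and the median log2 change was 0.52. Scaling by totals gave 12 higher and 4 lower, beside 54.0% and 32.6% of all genes. Abce1, which recycles ribosomes, rose 7.03-fold and Ddx3x, a helicase that acts on structured leaders, rose 6.91-fold. Ddx3x had 523 ± 12.7 CPM in aged and 75.7 ± 12.5 CPM in young cells. The poly(A)-binding protein genes Pabpc4 and Pabpc1 fell 1.84-fold and 1.79-fold. Pabpc1, whose protein binds eIF4G, had 517 ± 11.4 CPM in aged and 925 ± 58.1 CPM in young cells (edgeR adjusted p = 9.1e-13).

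In the list of elongation, termination and hypusination, 13 of 14 genes were tested, of which 3 rose and 8 fell, and the median log2 change was -0.78. With scaling by totals, 5 rose and 8 fell, beside 54.0% and 32.6% of all genes. The main elongation factor genes fell most: Eef1a1 fell 3.13-fold, at 1811 ± 15.0 CPM in aged and 5661 ± 97.1 CPM in young cells, and Eef2 fell 3.09-fold, at 1603 ± 13.7 and 4952 ± 207 CPM. The termination factor genes rose, with Gspt1 (eRF3) 3.57-fold and Etf1 (eRF1) 3.26-fold higher in aged cells (edgeR adjusted p of 1.9e-13 or less). These lists are described by their counts and medians beside the 44.7% higher, 41.8% lower and median of 0.05 of all genes tested, and no difference between lists was tested.

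**Figure D4:**
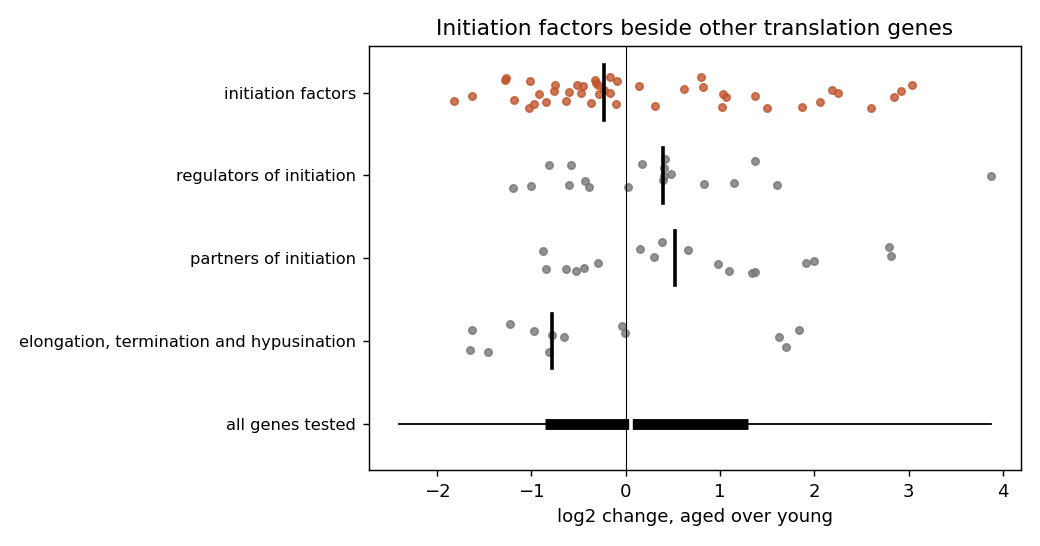
Log2 changes, aged over young (horizontal axis), of the 45 initiation factor genes and of 3 lists of other translation genes (points, with the median as a bar). The bottom row shows the median, quartiles and 5th to 95th percentile of all genes tested; the initiation factors run from -1.82 to 3.03, within those percentiles of -2.41 and 3.87.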

How the data were processed

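The deposited file holds whole-number read counts by gene symbol for 3 aged and 3 young libraries, which the authors had not normalized, as the differing library totals show. TRIzol extraction preceded library construction with a VAHTS Universal kit, per the labels' protocols. fastp, HISAT2 and HTSeq are named, per the submitters' processing notes. Versions, settings, strand, genome build and annotation were not given in the sources used here. Reads of overlapping or near-identical genes therefore cannot be told apart.

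All genes were tested together with edgeR 4.0.16 in R 4.3.3: filterByExpr (minimum count 10), TMM scaling, and the quasi-likelihood F test of aged over young with no covariate. Benjamini-Hochberg adjustment ran over 14273 genes, and members were read out of that fit. Standard errors are the log2 change divided by the square root of F. Ratios used log2 CPM with a prior count of 2 and exact permutation tests in scipy. The procedure was tested on simulated data in which a small part of the genes changed, with as many rises as falls. A shift between scalings like the one in these data was not simulated.

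Members and lists were chosen with earlier results of these data known. Named genes are those with the largest rise and fall in each factor among those called whose mean reached 5 CPM. Members not called, genes of the ratio pairs, and the 2 largest rises and falls of each list are also named. Other members are named to account for all 45. Eif4ebp2, Eif4ebp3, Mtor, Rptor, Mlst8 and Rps6kb2 are named beside related genes of their list. Alternatives were scaling by library totals or median-of-ratios factors, DESeq2 1.42.0, limma-voom (limma 3.58.1), no filter, a replicate block and leaving out each library.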

Additional observations from a re-analysis of the deposited data

How the results depend on the processing

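All 44 called members kept their call and direction with median-of-ratios factors, DESeq2, limma-voom and no low-count filter. Scaling by library totals alone had the largest effect. Members called lower were then 16 and their median log2 change was 0.10. In eIF1 and eIF1A, 4 genes were called higher and 0 lower at an adjusted p under 0.05 in edgeR. There, 1 eIF2B gene, 6 eIF3 genes and 1 eIF4G gene were lower, 2 eIF4G genes were higher, and 5 genes of elongation, termination and hypusination were higher. The values that changed sign were 0.17 for Eif1, 0.24 for Eif1ad, 0.10 for Eif2b2, 0.0088 for Eif3b, 0.019 for Eif3d, 0.040 for Eif3e, 0.055 for Eif3l, 0.17 for Eif4g1 and 0.23 for Eif6; this scaling shifts all genes by 0.34, so the sign of small changes follows from it. Leaving out 1 library gave 17 to 18 members higher and 25 to 26 lower, with a median of -0.25 to -0.21. The calls lost were those of Eif2s3 and Eif6. Each ratio kept its sign without any 1 library and with a prior count of 0.5. Eif6 was the one member whose call was lost with the replicate block (log2 change -0.10, adjusted p = 0.051). Same-numbered libraries did not deviate together (correlations of -0.013, 0.0011 and 0.0098). With 3 libraries in each group, this cannot show whether libraries were handled in pairs, which the labels do not say. The fewest reads of a member in a library were 97, for Eif4e3, and standard errors were widest for the low-count genes Eif4e3 (0.15), Eif5a2 (0.12) and Eif2a (0.11).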

Other observations

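The genes of this paragraph were chosen after their values were seen. The enzymes that make hypusine on eIF5A did not move together. Dhps, the first of them, was 2.34-fold lower, at 18.4 ± 0.809 CPM in aged and 43.1 ± 2.42 CPM in young cells (SD, n = 3 each, edgeR adjusted p = 1.2e-11). Dohh, the second, was not called, at 59.5 ± 3.01 CPM in aged and 59.7 ± 2.07 CPM in young cells (edgeR adjusted p = 0.93). With scaling by totals, all 13 tested genes of its list were called, and Dohh was among the 5 that were higher. Both initiation factor genes of the mitochondrial ribosome were higher in aged cells. Mtif2 was 3.77-fold higher, at 13.04 ± 1.51 against 3.46 ± 0.0989 CPM, and Mtif3 was 1.58-fold higher, at 26.9 ± 2.18 against 17.0 ± 1.254 CPM (edgeR adjusted p of 8.3e-07 or less). The mitochondria-encoded genes, which these factors help to translate, took 4.33% ± 0.113 of the reads in aged libraries and 1.18% ± 0.157 in young ones.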
